A study of Mus musculus with 4 samples.

Results

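Membrane carriers for sugars, monocarboxylates, vitamins, metals and nucleotide sugars were followed in RNA brought down with an antibody against CPEB3, the cytoplasmic polyadenylation element binding protein 3. Members were all probes for genes whose symbols begin with Slc2a, Slc5a, Slc11a, Slc16a, Slc19a, Slc30a, Slc31a, Slc35, Slc39a, Slc40a or Slc41a, whatever their values. The array holds 138 such probes for 102 genes, out of 55681 probes in all. Of these genes 96 had a probe that was well above background on 2 or more arrays and were tested among 27685 entries. Slc2a7, Slc39a5, Slc5a1, Slc5a2, Slc5a8 and Slc5a12 did not reach that limit and have no value here. Slc2a4rg-ps, a pseudogene related to a regulator of Slc2a4, was taken in by its name and is no carrier.

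Lysate of cortex and hippocampus (labelled corticohippocampal tissue) came from male C57BL/6 mice aged 8 weeks, an inbred strain with no genetic change named in the labels. It was left for 3 h on beads that carried either CPEB3 IgG or a control IgG, and the RNA of each precipitate was hybridised to a 1-colour array. There were 2 arrays for each antibody, and whether these stem from different animals or lysates is not given in the labels. P-values here therefore reflect the spread between these samples alone, and that spread may be technical. Input RNA was not analysed here. A level is the log2 signal relative to the 75th percentile of its array, and a difference is the CPEB3 IgG level minus the control IgG level, that is, a ratio of shares of the precipitated RNA. Such a difference compares precipitates and is no measure of expression in the tissue. Since the lysate is of whole tissue, fewer cells of a type and less RNA per cell cannot be told apart in a level. Nor can the antibody be told apart from the row of the slide, since each antibody had a row of its own on the same slide. Between 68.0% and 73.4% of probes were well above background on an array, and with 2 arrays a group the precision of all values is limited.

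Solute carriers are membrane proteins that move small molecules along or against their gradients. In brain, facilitative glucose carriers feed glycolysis, monocarboxylate carriers exchange lactate between cell types, and Slc30 and Slc39 proteins move zinc out of and into the cytosol. The Slc35 family works inside the cell, where it brings activated sugars and sulfate into the Golgi apparatus and endoplasmic reticulum for glycan synthesis. CPEB proteins bind uridine-rich elements of mRNAs and control their translation.

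Of the 12 genes that were higher by at least 4-fold, 7 are shown first, picked to include carriers of sugars, thiamine, zinc and iron and 1 Slc35 gene. They are shown by the part of the probe that reported them, since the array reads only the transcript stretch under each probe. Each line is a stretch of 30 of the 60 bases, in the sense of the mRNA and with T for U, around the longest run of T in the probe, which is in capitals. Positions of the whole probes are on mm9, per the file headers. Slc19a2 lies at chr1:166195274-166195333 (plus strand), Slc2a1 at chr4:118809864-118809923 (plus), Slc2a12 at chr10:22424022-22424081 (plus), Slc30a5 at chr13:101572862-101572921 (minus), Slc39a1 at chr3:90057457-90057516 (plus), Slc40a1 at chr1:45965255-45965314 (minus) and Slc35f4 at chr14:49918268-49918327 (minus). Whether they lie in exons or UTRs was not analysed here.
Slc19a2: cTTTgggattcagttcagtgtttgtggcat
Slc2a1: caaactcctgtaacTTTacctaagcagata
Slc2a12: cttctacctctggTTTTTTaaaaataatct
Slc30a5: actgtaaatatgtaTTTacatgtttattac
Slc39a1: tctgtagaatctaTTTTactaactgacctg
Slc40a1: cacaaaagttccccTTTcaatatccctgag
Slc35f4: ctatcaactctgagTTTaaataacccatat

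With CPEB3 IgG, 48 of the 96 tested transporter genes were higher, 3 were lower and 45 did not pass (limma, Benjamini-Hochberg adjusted p under 0.05 over all entries). Those counts are 50% and 3.12% of the tested members, beside 19.2% higher and 20.2% lower over all 27685 entries. Among the 17445 entries matched to RefSeq, to which 94 of the tested members belong, 25.5% were higher and 19.7% lower. The median log2 difference was 0.72 over the members and −0.14 over all entries. The mitochondrial Slc25 carriers had 11 higher and 6 lower of 41, and all further Slc genes 61 higher and 16 lower of 185, with medians of 0.27 and 0.29. The members were a named set, so these shares describe them and were not tested against each other. Counts by family and by marker list below are likewise to be read beside the 19.2% higher and 20.2% lower of all entries. At an unadjusted p under 0.05 (limma), 6338 of the 27685 entries were higher and 7594 lower, the background for counts at that limit. In 62 genes both CPEB3 IgG arrays lay above both control arrays, in 6 both lay below, and in 28 the groups overlapped. Of the higher genes 36 differed by at least 2-fold and 12 by at least 4-fold, and their median fold was 2.62. No share over all entries is given beside these counts of overlap and fold, so they describe the members alone.

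**Figure D1:**
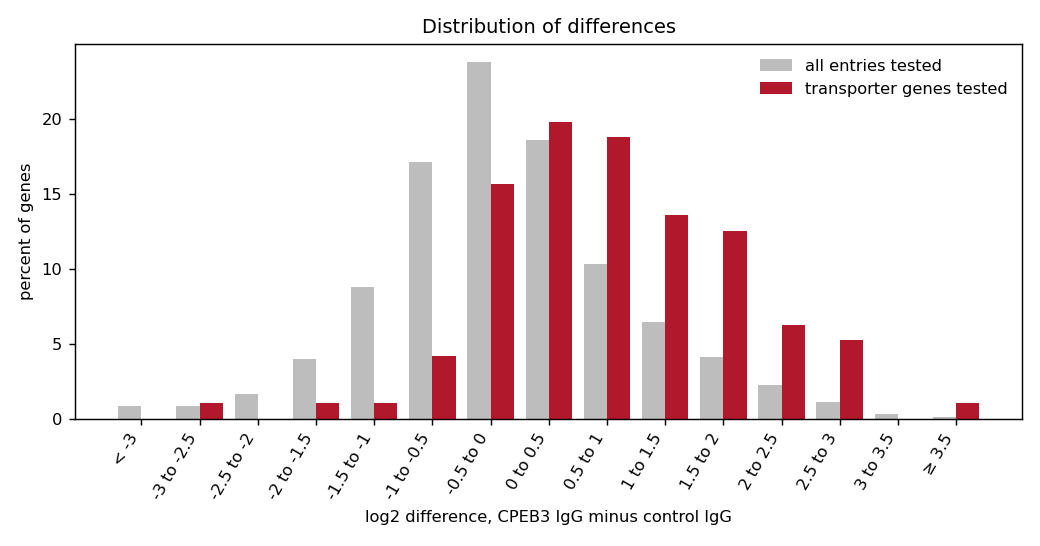
Percent of genes (vertical axis) in bins of the log2 difference, CPEB3 IgG minus control IgG (horizontal axis), for the 96 tested transporter genes and for all 27685 entries. The transporter bars are taller than the grey bars in every bin from 0 to 3, and 1 transporter gene lies at 3.5 or more.

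**Figure D2:**
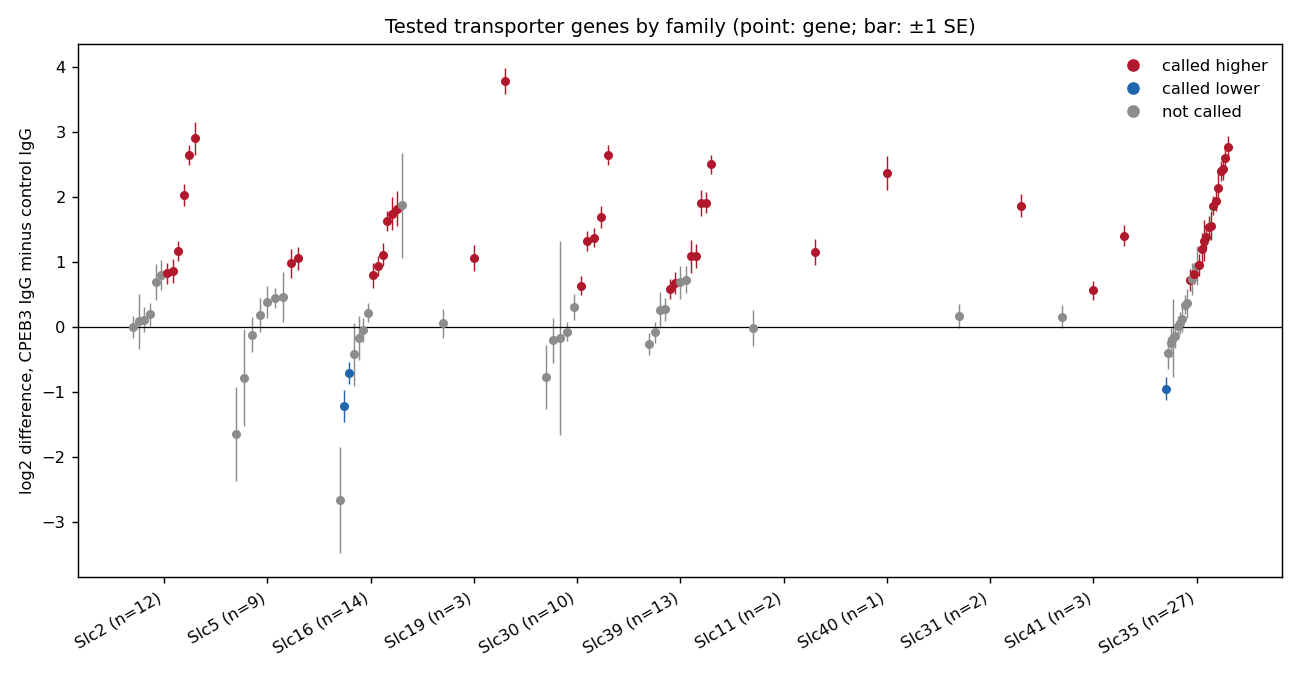
Log2 difference of each tested transporter gene (point, with a bar of 1 SE either way), grouped by gene family, with the number tested in brackets. Points called higher occur in all 11 families, and the 3 called lower belong to Slc16 and Slc35.

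Fewer genes were called on 3 arrays, where the group left with 1 array is assumed to vary like the other and the spread has 1 residual degree of freedom. Without CPEB3 IgG replicate 1, 26 members were called higher and 0 lower (limma, with 3 arrays), and without CPEB3 IgG replicate 2 they were 27 and 3. Without scaling between arrays 30 were higher and 3 lower, and over all entries 46.1% of the calls were higher. The share of all entries called in these other fits is not given, so the counts describe the members alone. The share of higher genes among the called members stayed between 90% and 100% in all fits, whereas over all entries it was 48.7% with the 75th percentile, 68.4% with the median and 88% with spike-in scaling. The median of all entries moved from −0.14 to 0.15 and 0.58 with those scalings, and that of the members from 0.72 to 1.01 and 1.44. Markers of neurons, the main cells of the labelled tissue, were well above background on every array in 10 of 10 genes. Of these markers 2 were higher and 1 lower (20% and 10%, beside 19.2% and 20.2% of all entries). Their summed relative signal was 361 and 375 on the CPEB3 IgG arrays and 356 and 362 on the control arrays. Choroid plexus markers followed the replicate number instead of the antibody, with sums of 19.2 and 29.8 on the arrays numbered 1 and 2.28 and 2.39 on those numbered 2. Oligodendrocyte and microglia markers had 0 higher and 1 lower of 6 each by limma, and 0 and 1 of 2 measured for red blood cells. The lower share of 16.7% in the first 2 lists is below the 20.2% of all entries. These counts are no result about the cell types. At an unadjusted p under 0.05 these lists had 0, 1 and 0 genes higher and 2, 1 and 1 lower. Oligodendrocyte markers summed to 129 and 104.9 against 175 and 139, lower with CPEB3 IgG with no overlap, and microglia markers to 41.7 and 44.3 against 37.1 and 61.5, with overlap. The summed signal of the red blood cell markers, likewise lower without overlap, was 28.7 and 21 against 56.4 and 41.6. That sum came mostly from Hba-a1, the gene called lower. In Alas2, the other measured marker, the groups overlapped, so the sum reads 1 gene and gives no direction for the cell type. The part of these cell types in the transporter differences was not tested. Ttr, the choroid plexus transthyretin, had levels of 3.92 and −0.94 against 4.71 and −0.56 (CPEB3 IgG replicates 1 and 2 against control IgG replicates 1 and 2).

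Glucose carrier mRNAs of the Slc2 family included some of the largest differences, with 6 of 12 tested genes higher and 0 lower (7 and 0 at an unadjusted p under 0.05) and a median of 0.81. Slc2a1, the glucose carrier of brain capillaries and astrocytes, had levels of 3.74 and 3.39 on the CPEB3 IgG arrays and 0.92 and 0.41 on the control arrays. It was 7.46-fold higher (95% interval 4.66 to 11.9), and the log2 difference was 2.90 ± 0.25 (± SE here and below, adjusted p = 0.0041). Both CPEB3 IgG arrays lay above both control arrays, by more than the gap within either pair. Slc2a3, the main neuronal glucose carrier, had 4.27 and 4.52 on the CPEB3 IgG arrays and 2.29 and 2.44 on the control arrays, a difference of 2.03 ± 0.18 (adjusted p = 0.0041). Slc2a12, a further facilitative sugar carrier, had 3.21 and 3.10 on the CPEB3 IgG arrays and 0.59 and 0.44 on the control arrays and differed by 2.64 ± 0.16 (adjusted p = 0.00386). All 3 genes kept their calls in each of 14 alternative fits, with other scalings, background corrections, filters, probe rules and variance models, a replicate block, or 1 array left out.

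Slc2a13, the proton-coupled myo-inositol carrier, was higher by 1.17 ± 0.15, with 3.41 and 3.28 against 2.13 and 2.22 (CPEB3 IgG replicates 1 and 2 against control IgG replicates 1 and 2, an order kept below). Slc2a4, the insulin-responsive glucose carrier, was higher by 0.85 ± 0.18 (−2.31 and −1.98 against −2.97 and −3.02), and Slc2a6, an intracellular carrier, by 0.82 ± 0.16 (2.22 and 2.16 against 1.27 and 1.46). In these 3 genes, too, the groups did not overlap. Leaving out CPEB3 IgG replicate 1 ended the call of Slc2a13 (1.11), Slc2a4 (1.02) and Slc2a6 (0.80), CPEB3 IgG replicate 2 that of Slc2a4 (0.68) and Slc2a6 (0.85), control IgG replicate 1 that of Slc2a4 (0.87) and Slc2a6 (0.73), and control IgG replicate 2 that of Slc2a4 (0.83). Calls were also lost without scaling between arrays for Slc2a13, Slc2a4 and Slc2a6, without the filter on dim probes for Slc2a4, with normexp background correction for Slc2a4 (0.46), and with the mean of the probes of a gene for Slc2a6 (0.35). Slc2a10 lay just outside the threshold at 0.80 (adjusted p = 0.0558), although both CPEB3 IgG arrays (−3.21 and −3.27) lay above the control arrays (−3.77 and −4.30). The fructose carrier Slc2a5 (0.68 ± 0.27), the intracellular carrier Slc2a8 (0.19 ± 0.17), Slc2a2 (0.082 ± 0.42), the urate carrier Slc2a9 (−0.0052 ± 0.17) and the pseudogene Slc2a4rg-ps (0.11 ± 0.19) did not pass, and Slc2a9 was well above background on only 1 array of each group.

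**Figure D3:**
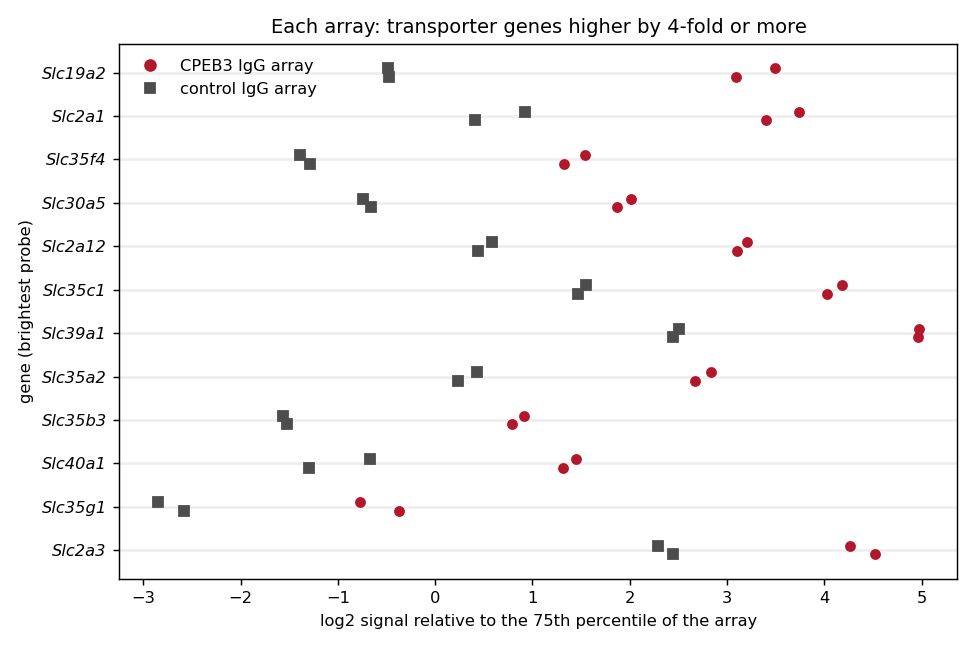
Log2 signal relative to the 75th percentile of the array (horizontal axis) on each of the 4 arrays for the 12 transporter genes that were higher by 4-fold or more, ordered by their difference. Circles are CPEB3 IgG arrays and squares control IgG arrays. In each gene the circles lie to the right of the squares by more than the distance within a pair.

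Endothelial markers, the cells in which Slc2a1 is best known, had 1 gene higher and 0 lower of 5 measured (of 6 on the list), namely Cdh5. Their summed relative signal was 15.4 and 14.7 on the CPEB3 IgG arrays and 16.3 and 14.2 on the control arrays, ranges that overlap. Astrocyte markers had 2 higher (Slc1a3 and Gja1) and 1 lower (Aldh1l1) of 7, with overlapping sums of 118 and 72.9 against 85.4 and 63. Slc1a3 was the brightest of the list on both CPEB3 IgG arrays but on neither control array, so it weighs most in the CPEB3 IgG sums. These sums therefore mix markers that moved in opposite directions, and they give no direction for astrocyte RNA.

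Of 9 tested sodium-coupled carriers of the Slc5 family, 2 were higher and 0 lower (3 and 0 at an unadjusted p under 0.05). The higher share of 22.2% is near that of all entries and is no result about the family, and 4 of the 13 were too dim to test. Slc5a3, which takes up myo-inositol as an osmolyte, had levels of −0.11 and −0.11 on the CPEB3 IgG arrays and −1.30 and −1.01 on the control arrays. Its difference was 1.05 ± 0.17 (adjusted p = 0.0141). Slc5a4a, a sodium-coupled carrier of the glucose group, was higher by 0.97 ± 0.23 (−0.76 and −0.64 against −1.93 and −1.42, adjusted p = 0.0335). In this family, leaving out CPEB3 IgG replicate 1 ended the call of Slc5a3 (1.05) and Slc5a4a (1.03), CPEB3 IgG replicate 2 that of Slc5a3 (1.05) and Slc5a4a (0.91), and control IgG replicate 1 that of Slc5a4a (0.72). The threshold was missed as well without scaling between arrays for Slc5a3 and Slc5a4a, and without the filter on dim probes for Slc5a4a. The multivitamin carrier Slc5a6, for biotin and pantothenate, gave 0.44 ± 0.16 (95% interval 0.019 to 0.86, adjusted p = 0.0903) and the choline carrier Slc5a7 of cholinergic neurons 0.38 ± 0.25. Slc5a4b, Slc5a5, Slc5a9, Slc5a10 and Slc5a11 ranged from −1.65 to 0.45 and did not pass. In Slc5a9 and Slc5a11 the CPEB3 IgG arrays stood apart from each other (−4.37 and −2.44, and −5.77 and −3.62).

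Monocarboxylate carriers of the Slc16 family went both ways, with 6 higher, 2 lower and 6 not called of 14. Slc16a1, which moves lactate, pyruvate and ketone bodies and is found in endothelium and glia, had levels of 0.96 and 1.51 on the CPEB3 IgG arrays and −0.66 and −0.35 on the control arrays. The difference was 1.74 ± 0.26 (adjusted p = 0.0107), or 3.34-fold. Slc16a3, the lactate exporter of glycolytic cells such as astrocytes, had 1.11 and 1.19 on the CPEB3 IgG arrays and −0.56 and −0.39 on the control arrays, a difference of 1.63 ± 0.16 (adjusted p = 0.00474). A second Slc16a3 probe, shifted by 7 bases, gave 1.75, so both readings of this site moved alike. By contrast, the neuronal lactate carrier Slc16a7 had −0.27 and −0.65 on the CPEB3 IgG arrays and 3.38 and 1.03 on the control arrays. Its difference of −2.67 ± 0.82 did not pass (adjusted p = 0.0636), and its control arrays differed by more than 2 log2 units. Its other probe, nearer the 3′ end, gave −0.32.

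Slc16a9, a carnitine carrier, was higher by 1.81 ± 0.27 (−0.19 and −0.49 against −1.86 and −2.45), Slc16a11 by 1.11 ± 0.17 (2.05 and 2.22 against 0.92 and 1.14), Slc16a6 by 0.94 ± 0.16 (1.24 and 1.34 against 0.28 and 0.43) and Slc16a14 by 0.79 ± 0.19 (0.42 and 0.78 against −0.14 and −0.24). In none of these 4 genes did the groups overlap. Slc16a12, a creatine carrier, was lower, with a difference of −1.22 ± 0.24 (−2.64 and −2.14 against −1.31 and −1.02, adjusted p = 0.0215). Slc16a8, a lactate carrier known from retinal pigment epithelium and choroid plexus, was lower, with −0.72 ± 0.17 (−2.51 and −2.42 against −1.62 and −1.88, adjusted p = 0.0346). The choroid plexus list itself had 0 genes higher and 0 lower of 6 by limma, and 1 gene (Otx2) had an unadjusted p under 0.05. Among these genes, leaving out CPEB3 IgG replicate 1 ended the call of Slc16a11 (1.20), Slc16a12 (−0.97), Slc16a6 (0.98), Slc16a9 (1.67), Slc16a14 (0.97) and Slc16a8 (−0.67), CPEB3 IgG replicate 2 that of Slc16a11 (1.02), Slc16a6 (0.89), Slc16a9 (1.96), Slc16a14 (0.61) and Slc16a8 (−0.76), control IgG replicate 1 that of Slc16a6 (0.86), Slc16a14 (0.84) and Slc16a8 (−0.59), and control IgG replicate 2 that of Slc16a12 (−1.08), Slc16a14 (0.74) and Slc16a8 (−0.84). Calls also ended without scaling between arrays for Slc16a11, Slc16a6, Slc16a14 and Slc16a8, without the filter on dim probes for Slc16a14 and Slc16a8, with spike-in scaling for Slc16a12 (−0.51) and Slc16a8 (−0.00076), with quantile normalization for Slc16a8 (−0.48), with scaling on the median for Slc16a8 (−0.43), and with normexp background correction for Slc16a8 (−0.41). Among the 6 not called, Slc16a4 gave 1.86 ± 0.81, Slc16a5 −0.43 ± 0.49 and Slc16a13 −0.049 ± 0.18. The brighter probe of Slc16a10, a carrier of aromatic amino acids, gave −0.17 ± 0.34, and its other probe is described with the probe pairs.

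The largest difference among the tested members was that of the thiamine carrier Slc19a2. Its levels were 3.50 and 3.10 on the CPEB3 IgG arrays and −0.49 and −0.48 on the control arrays, and it was 13.7-fold higher (95% interval 9.47 to 19.8; log2 difference 3.78 ± 0.20, adjusted p = 0.00386). The control arrays lay within 0.1 log2 units of each other, and the call held in every alternative fit. Slc19a1, the reduced folate carrier, had 0.66 and 0.92 against −0.41 and −0.12 and was higher by 1.05 ± 0.20 (adjusted p = 0.0182). The Slc19a1 call was lost without any one of CPEB3 IgG replicate 1 (1.18), CPEB3 IgG replicate 2 (0.93) and control IgG replicate 1 (0.91), without scaling between arrays (1.02). The other thiamine carrier, Slc19a3, gave 0.049 ± 0.22 (95% interval −0.54 to 0.63) at its brighter probe, with overlapping groups (−3.69 and −3.33 against −3.72 and −3.40). Whether the thiamine carriers differ from each other was not tested.

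Among 10 tested zinc exporters of the Slc30 family 5 were higher and 0 lower (also 5 and 0 at an unadjusted p under 0.05). Slc30a5 and Slc30a6 form a pair that loads zinc into the early secretory pathway. Slc30a5 had levels of 2.01 and 1.87 on the CPEB3 IgG arrays and −0.74 and −0.66 on the control arrays, a difference of 2.64 ± 0.15 (6.25-fold, adjusted p = 0.00386), and Slc30a6 had −0.51 and −0.46 against −1.87 and −1.83, a difference of 1.37 ± 0.15 (adjusted p = 0.00549). Slc30a4, a zinc carrier of endosomes and vesicles, had 3.30 and 3.40 against 1.54 and 1.79, a difference of 1.69 ± 0.17. Slc30a1, the zinc exporter of the plasma membrane, had 1.86 and 2.00 against 0.59 and 0.62, a difference of 1.32 ± 0.15. These 4 genes kept their calls in every alternative fit. Slc30a10, a manganese exporter, was higher by 0.63 ± 0.15 (−1.78 and −1.80 against −2.37 and −2.47). The Slc30a10 call was lost without any one of CPEB3 IgG replicate 1 (0.62), CPEB3 IgG replicate 2 (0.64), control IgG replicate 1 (0.68) and control IgG replicate 2 (0.58), without scaling between arrays (0.60) and the filter on dim probes (0.63), and with spike-in scaling (1.35) and with normexp background correction (0.44). Slc30a3, which fills synaptic vesicles of glutamatergic neurons with zinc, had −2.71 and −2.01 on the CPEB3 IgG arrays and −2.18 and −0.98 on the control arrays. Its difference of −0.77 ± 0.49 did not pass (adjusted p = 0.273) and its groups overlapped. Slc30a2, Slc30a7, Slc30a8 and Slc30a9 ranged from −0.21 to 0.31 and did not pass, and the CPEB3 IgG levels of Slc30a8 (−6.42 and −2.18) differed by more than 4 log2 units.

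Among 13 tested zinc importers of the Slc39 family 7 were higher and 0 lower (9 and 0 at an unadjusted p under 0.05). Slc39a1, a zinc importer of the plasma membrane, had levels of 4.97 and 4.96 on the CPEB3 IgG arrays and 2.50 and 2.44 on the control arrays. It was 5.64-fold higher (95% interval 4.29 to 7.41, adjusted p = 0.00386). Slc39a14, which also carries iron and manganese, had 1.45 and 1.65 against −0.40 and −0.32 and a difference of 1.91 ± 0.16 (adjusted p = 0.00406). Slc39a6 had 3.64 and 3.26 against 1.59 and 1.51 and differed by 1.90 ± 0.20 (adjusted p = 0.00514), and its partner in a heteromer, Slc39a10, had 1.54 and 1.98 against 0.48 and 0.88 and differed by 1.08 ± 0.25 (adjusted p = 0.0312). The brain-expressed importer Slc39a12 was higher by 1.09 ± 0.19 at its brighter probe (0.73 and 0.38 against −0.51 and −0.56). Slc39a7, which releases zinc from the endoplasmic reticulum, was higher by 0.67 ± 0.16 (4.36 and 4.24 against 3.73 and 3.53, adjusted p = 0.0362). Slc39a3 lay just inside the threshold, at 0.58 ± 0.15 (adjusted p = 0.0432), and Slc39a11 lay just outside it at 0.73 ± 0.20 (adjusted p = 0.0507). On 3 arrays the calls were fewer, as leaving out CPEB3 IgG replicate 1 ended the call of Slc39a10 (1.30), Slc39a12 (0.91), Slc39a3 (0.64) and Slc39a7 (0.61), CPEB3 IgG replicate 2 that of Slc39a10 (0.86), Slc39a3 (0.52) and Slc39a7 (0.73), control IgG replicate 1 that of Slc39a10 (0.88), Slc39a3 (0.55) and Slc39a7 (0.77), and control IgG replicate 2 that of Slc39a3 (0.61) and Slc39a7 (0.58). Further losses occurred without scaling between arrays for Slc39a10, Slc39a12, Slc39a3 and Slc39a7, without the filter on dim probes for Slc39a10, Slc39a3 and Slc39a7, with spike-in scaling for Slc39a3 (1.30) and Slc39a7 (1.39), with quantile normalization for Slc39a3 (0.42), and with the mean of the probes of a gene for Slc39a12 (0.18). Slc39a2, Slc39a4, Slc39a8, Slc39a9 and Slc39a13 ranged from −0.27 to 0.68 and did not pass, and Slc39a9 was well above background on only 1 control array.

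Iron and copper carriers were represented by few genes. Slc40a1, ferroportin, the known cellular iron exporter, had levels of 1.44 and 1.32 on the CPEB3 IgG arrays and −0.67 and −1.30 on the control arrays, 5.16-fold higher (2.37 ± 0.26, adjusted p = 0.00573). Slc11a2, the divalent metal carrier that brings iron out of endosomes, had −0.24 and −0.51 against −1.37 and −1.69 and was higher by 1.15 ± 0.20 (adjusted p = 0.0159). Its relative Slc11a1, of macrophage phagosomes, gave −0.023 ± 0.28 with overlapping groups. Of the copper carriers, Slc31a2 was higher by 1.86 ± 0.18 (1.32 and 1.24 against −0.73 and −0.43, adjusted p = 0.00464), while Slc31a1, the main copper importer of the plasma membrane, had 0.80 and 0.82 against 0.82 and 0.48 and gave 0.16 ± 0.19 (95% interval −0.34 to 0.66). The magnesium carrier Slc41a1 was higher by 1.40 ± 0.16 (0.32 and 0.49 against −0.92 and −1.08) and Slc41a2 by 0.56 ± 0.15 (0.071 and 0.14 against −0.47 and −0.44, adjusted p = 0.0439, the member closest to the threshold from inside). Slc41a3 gave 0.15 ± 0.18 and did not pass. Some of these calls were lost on 3 arrays, as leaving out CPEB3 IgG replicate 1 ended the call of Slc11a2 (1.02) and Slc41a2 (0.60), CPEB3 IgG replicate 2 that of Slc11a2 (1.28) and Slc41a2 (0.52), control IgG replicate 1 that of Slc41a2 (0.54), and control IgG replicate 2 that of Slc41a2 (0.57). It was missed, too, without scaling between arrays for Slc11a2 and Slc41a2, without the filter on dim probes for Slc41a2, with spike-in scaling for Slc41a2 (1.27), and with the mean of the probes of a gene for Slc11a2 (0.44).

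Nucleotide-sugar carriers of the Slc35 family made up 27 of the genes, all tested, with 15 higher, 1 lower and 11 not called. In the subfamily of sialic acid, galactose and N-acetylglucosamine carriers, Slc35a2, which brings UDP-galactose into the Golgi, had levels of 2.84 and 2.67 on the CPEB3 IgG arrays and 0.43 and 0.23 on the control arrays, 5.36-fold higher (2.42 ± 0.17, adjusted p = 0.00386). Slc35a1, the carrier of CMP-sialic acid, had −0.29 and 0.25 against −1.14 and −1.30 and was higher by 1.20 ± 0.24. Slc35c1, the Golgi GDP-fucose carrier, had 4.18 and 4.03 on the CPEB3 IgG arrays and 1.55 and 1.46 on the control arrays, 6.05-fold higher (2.60 ± 0.16, adjusted p = 0.00386). Slc35a5 was higher by 0.72 ± 0.17 (adjusted p = 0.0324), and Slc35a3, for UDP-N-acetylglucosamine, and Slc35a4 gave 0.36 and 0.11 and did not pass.

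All 4 tested Slc35b genes were higher. Slc35b2 and Slc35b3 carry PAPS, the activated sulfate used to sulfate glycans and proteins. Slc35b3 had 0.91 and 0.79 against −1.56 and −1.52 and a difference of 2.39 ± 0.15 (adjusted p = 0.00386), and Slc35b2 had 2.08 and 2.06 against 1.25 and 0.99 and a difference of 0.95 ± 0.17 (adjusted p = 0.0166). Slc35b1, an ATP and ADP exchanger of the endoplasmic reticulum, had 4.81 and 4.76 against 2.95 and 2.92 and a difference of 1.86 ± 0.15 (adjusted p = 0.00392). Slc35b4, for UDP-xylose and UDP-N-acetylglucosamine, differed by 1.38 ± 0.19. Slc35d1, for UDP-glucuronic acid and UDP-N-acetylgalactosamine, differed by 1.32 ± 0.32 and Slc35d3 by 1.55 ± 0.23, while Slc35d2 gave 0.056 ± 0.16.

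Less is known of what the Slc35e, Slc35f and Slc35g proteins carry. Slc35f4 had 1.54 and 1.32 on the CPEB3 IgG arrays and −1.39 and −1.29 on the control arrays, 6.8-fold higher (2.77 ± 0.17, adjusted p = 0.00386), and Slc35g1 had −0.77 and −0.38 against −2.85 and −2.58, 4.41-fold higher. Slc35f1 (1.94 ± 0.16), Slc35f5 (1.53 ± 0.17) and Slc35f2 (0.81 ± 0.15) were higher as well. Slc35g2 was the one lower gene of the family, at −0.96 ± 0.18 (−1.03 and −1.10 against −0.25 and 0.042, adjusted p = 0.0182). None of the 4 Slc35e genes passed, with differences from −0.18 to 0.94. The remaining members, Slc35c2, Slc35f3, Slc35f6 and Slc35g3, ranged from −0.40 to 0.018. With 1 array fewer some calls were lost, since leaving out CPEB3 IgG replicate 1 ended the call of Slc35a5 (0.79), Slc35b2 (0.94), Slc35d1 (1.42), Slc35d3 (1.32), Slc35f2 (0.84) and Slc35g2 (−0.99), CPEB3 IgG replicate 2 that of Slc35a1 (0.93), Slc35a5 (0.64), Slc35b2 (0.96), Slc35b4 (1.27), Slc35d1 (1.22), Slc35f2 (0.78) and Slc35g2 (−0.92), control IgG replicate 1 that of Slc35a5 (0.62) and Slc35f2 (0.83), and control IgG replicate 2 that of Slc35a1 (1.12), Slc35a5 (0.82), Slc35b2 (0.82), Slc35f2 (0.79) and Slc35g2 (−0.81). The adjusted p also passed 0.05 without scaling between arrays for Slc35a5, Slc35b2, Slc35f2 and Slc35g2, without the filter on dim probes for Slc35a5 and Slc35d1, with spike-in scaling for Slc35a5 (1.43) and Slc35g2 (−0.24), with scaling on the median for Slc35g2 (−0.67), with normexp background correction for Slc35a5 (0.38), and with the mean of the probes of a gene for Slc35f1 (1.19) and Slc35a5 (0.49).

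Probes for 1 gene did not always read alike. Of the 123 transporter probes tested one by one, 53 (43.1%) were higher and 5 (4.07%) lower, beside 15.8% and 18.9% of all 40616 probes (limma over all probes, adjusted p under 0.05). The lower probes were those of Slc16a8, Slc16a12 and Slc35g2 and the 5′ probes of Slc35f3 and Slc39a12. Of these calls, 3 higher ones (second probes of Slc16a9, Slc16a10 and Slc19a3) and 1 lower one (Slc39a12) came from probes that passed the filter only through the group where they are high, so they had to differ and support nothing here. Of the 26 genes with several tested probes, 5 had all of them higher (Slc16a3, Slc16a6, Slc16a9, Slc16a14 and Slc31a2), 10 had none called, and 1 (Slc39a12) had probes called in opposite directions. The second Slc16a9 probe and the 5′ Slc39a12 probe are among those that passed through 1 group only. In 20 of the 26 the difference was more positive at the probe nearest the 3′ end, and in 6 at the probe nearest the 5′ end, as placed by the deposited coordinates and strand. The 20 take in Slc16a10, Slc19a3 and Slc39a12, and the 6 take in Slc16a9. Each of these genes has a probe that passed through 1 group only, so the order of its probes supports nothing here. The same order was about as frequent outside the transporters. Among genes matched to RefSeq it held for 18 of 23 transporter genes (78.3%) and for 3361 of 4403 other genes (76.3%).

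**Figure D4:**
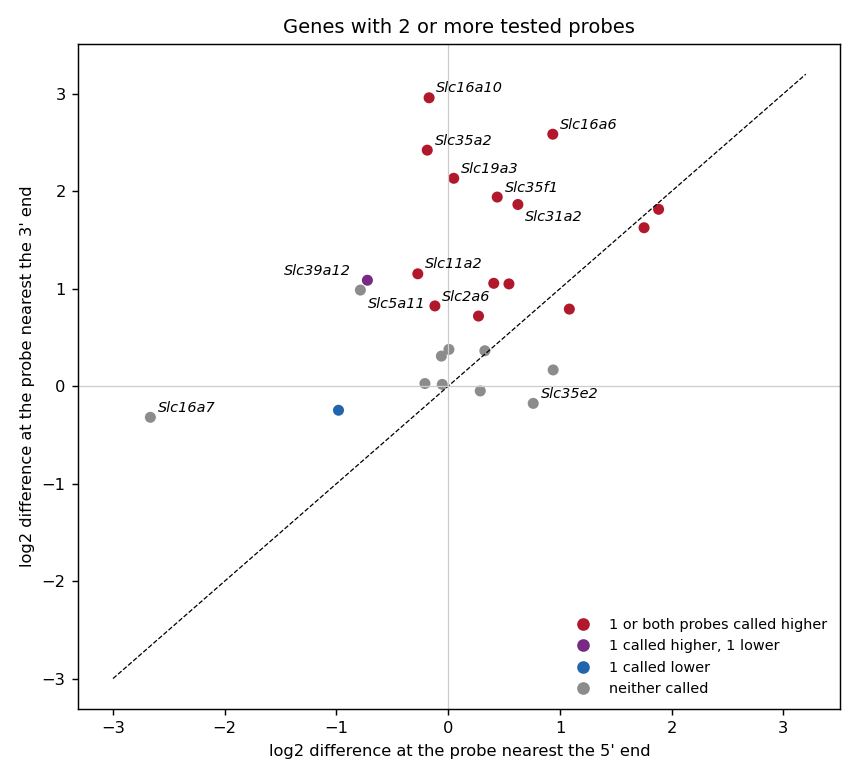
Log2 difference (CPEB3 IgG minus control IgG) at the probe nearest the 5′ end (horizontal axis) against that at the probe nearest the 3′ end (vertical axis) for the 26 genes with several tested probes, where the dashed line marks equal differences. In 20 genes the point lies above the line, and in Slc39a12 the probes have opposite calls, of which the lower one comes from a probe that passed the filter through the control arrays alone. Slc16a10 and Slc19a3, above the line, and Slc16a9, below it, have a probe that passed through the CPEB3 IgG arrays alone.

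In 5 genes a called probe stood beside one of the opposite sign, and in Slc16a10 and Slc39a12 this includes a call from such a probe. Both probes of each are given as stretches of 30 bases around their longest run of T (in capitals), with the probe nearer the 3′ end second. On mm9 the Slc35a2 probes lie at chrX:7469828-7469887 and chrX:7471006-7471065, the Slc16a10 probes at chr10:39852910-39852969 and chr10:39756480-39756539, the Slc39a12 probes at chr2:14357333-14357392 and chr2:14416384-14416443, the Slc11a2 probes at chr15:100240516-100240575 and chr15:100218333-100218392, and the Slc2a6 probes at chr2:26878631-26878690 and chr2:26876891-26876950.
Slc35a2, first probe: tcgtcaTTggtgctgtctacctctacagcc
Slc35a2, second probe: cactggatctttaTTTTTgattaatttgtt
Slc16a10, first probe: gagTTTccgtcttctgtattcctcttacta
Slc16a10, second probe: gccaacctaaaccTTgagtctgttaaatga
Slc39a12, first probe: actcaatccagaaTTaaatgaccagtcaag
Slc39a12, second probe: tggccacaataatgTTTagtgttagaaaat
Slc11a2, first probe: ccttcaccacctacTTTgatgagaaaatcc
Slc11a2, second probe: tgcTTTaatcccaaccagaaataatcatcc
Slc2a6, first probe: tgggggacacagccTTcaactatcttaccc
Slc2a6, second probe: caactgttcactgTTTTTcaaaataaagag

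At the first Slc35a2 probe the levels were −1.45 and −1.26 against −1.17 and −1.17, a difference of −0.19 ± 0.17 (adjusted p = 0.424), where the second gave 2.42. The second Slc16a10 probe, with −2.88 and −2.83 against −5.87 and −5.75, was dim on both control arrays (not well above background) and at least 4.66-fold brighter with CPEB3 IgG. Such a bound sets the mean of the bright group against, on each array of the dim group, the brighter of 2 signals, the probe's own or the dimmest one on that array to be well above background. It is given with no test, because the probe passed the filter only through the group where it is high, which also holds for the next 2 bounds. The first Slc39a12 probe, with −4.67 and −4.51 against −4.00 and −3.73, was dim in this sense on both CPEB3 IgG arrays and was at least 1.65-fold dimmer there, against a difference of 1.09 at the second. The first probes of Slc11a2 (−0.27 ± 0.24, adjusted p = 0.422) and Slc2a6 (−0.12 ± 0.34, adjusted p = 0.807) did not pass. With the mean of both probes the difference of Slc16a10 turned from −0.17 to 1.39 and was called higher, a mean that takes in the dim probe. A second, dimmer probe of the thiamine carrier Slc19a3 was dim on both control arrays too and at least 1.83-fold brighter with CPEB3 IgG. The second Slc16a6 probe, nearer the 3′ end, gave 2.58 ± 0.18 (−0.91 and −0.87 against −3.33 and −3.62) where the brighter one gave 0.94. For Slc35f3 the 5′ probe was lower, at −0.98 ± 0.20 (adjusted p = 0.0244) and the brighter 3′ probe gave −0.25.

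The classical word of CPEB target sites is TTTTAT in DNA letters. This is the cytoplasmic polyadenylation element in its common form, and CPEB3 is also known to bind other uridine-rich stretches. The word occurs in 4 of the 138 transporter probes (2.9%) and in 3.69% of all 55681 gene probes, searched on the mRNA strand only, and the variant TTTTAAT in 0 of 138 and 0.912%. Of these, 3 probes are shown as 30 bases with the word in capitals, on mm9 at chr11:70029853-70029912 for Slc16a11, chr15:91373416-91373475 for Slc2a13 and chr17:34165279-34165338 for Slc39a7.
Slc16a11: gacctccttccctaataaagaatTTTTATc
Slc2a13: tcatttggtacaatgttttccatTTTTATg
Slc39a7: tgattttttgtctctactcaTTTTATacca

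The Slc16a11 and Slc39a7 probes were called higher, and the Slc2a13 probe shown was not well above background on any array, so that its gene was read from another probe. Over 1 probe a gene the median share of T was 30.8% in the 48 genes called higher and 28.3% in the 45 not called. It was 30% over all 138 transporter probes and 28.3% over all gene probes, so the medians lie within 3 percentage points of each other. The rest of the transcripts was not searched here, and a word outside these windows would not be seen.

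Genes that act beside these carriers were read from fixed lists, which were chosen with earlier results of these data known, and they did not share one direction. Their counts are to be read beside the 19.2% higher and 20.2% lower of all entries, or 25.5% and 19.7% of the RefSeq-matched ones. Those at an unadjusted p under 0.05 (limma) stand beside 6338 higher and 7594 lower of 27685 entries. Of 9 magnesium-handling genes 6 were higher and 0 lower by limma (also 6 and 0 at an unadjusted p under 0.05), with the magnesium exporter Cnnm4 at 1.95 ± 0.16 (1.15 and 1.04 against −0.75 and −0.96) and the channel kinase Trpm6 at 1.38 ± 0.21 (−0.80 and −1.07 against −2.51 and −2.13). Of 15 iron-handling genes 4 were higher (26.7%) and 1 lower (6.67%), near the higher share of the RefSeq-matched entries, with the transferrin receptor Tfrc at 1.83 ± 0.25 (2.05 and 1.55 against −0.21 and 0.15) and the iron chaperone Pcbp2 at 1.17 ± 0.15. Of 8 copper-handling genes 0 were higher and 3 lower (0 and 4 at an unadjusted p under 0.05), with Commd1 at −2.34 ± 0.25 (0.48 and −0.12 against 2.57 and 2.48) and Ccs, the copper chaperone of superoxide dismutase, at −1.44 ± 0.15. The zinc-binding metallothioneins parted, with Mt2 higher by 1.74 ± 0.24 (9.09 and 9.05 against 7.62 and 7.05) and the brain form Mt3 lower, at −1.51 ± 0.15 (3.58 and 3.57 against 5.16 and 5.02), and that list had 1 higher and 1 lower of 5 (20% each, near the background).

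Partners of the monocarboxylate carriers had 0 genes higher and 3 lower of 4 (1 and 3 at an unadjusted p under 0.05). Ldhb and Ldha, the lactate dehydrogenase subunits, were lower, at −2.46 ± 0.22 (5.16 and 4.68 against 7.33 and 7.43) and −1.23 ± 0.17 (5.68 and 5.44 against 6.80 and 6.78). Of 7 genes of hexose phosphorylation 1 was higher and 2 lower, with hexokinases Hk2 at 1.56 ± 0.29 (−0.67 and −1.25 against −2.28 and −2.76) and Hk3 at −1.47 ± 0.23 (−3.90 and −3.45 against −2.08 and −2.34). Of 9 vitamin-using genes 3 were higher (33.3%) and 2 lower (22.2%), not far from those shares, led by the folate hydrolase Ggh at 2.45 ± 0.16 (2.39 and 2.19 against −0.13 and −0.19) and biotinidase, Btd, at 2.07 ± 0.15 (0.65 and 0.60 against −1.45 and −1.44). Nucleotide-sugar and PAPS synthesis, which makes the cargo of the Slc35 carriers, was higher for 8 (33.3%) and lower for 6 (25%) of 24 tested, again not far from them. The largest differences in size were those of Nans, the sialic acid synthase (−2.73 ± 0.20, −0.15 and −0.56 against 2.42 and 2.33), and Uap1l1 (−2.33 ± 0.17, −0.52 and −0.51 against 1.68 and 1.95). The medians of the 8 lists ran from −1.07 to 0.84, against 0.72 for the carriers. Here, too, calls were lost, since leaving out CPEB3 IgG replicate 1 ended the call of Trpm6 (1.25), Pcbp2 (1.12), Mt2 (1.71), Hk2 (1.27) and Hk3 (−1.24), and CPEB3 IgG replicate 2 that of Trpm6 (1.52) and Mt2 (1.76). Calls were also lost without scaling between arrays for Pcbp2, with spike-in scaling for Ldha (−0.52), Ccs (−0.73), Mt3 (−0.80) and Hk3 (−0.75), and with normexp background correction for Hk3 (−0.49).

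**Figure D5:**
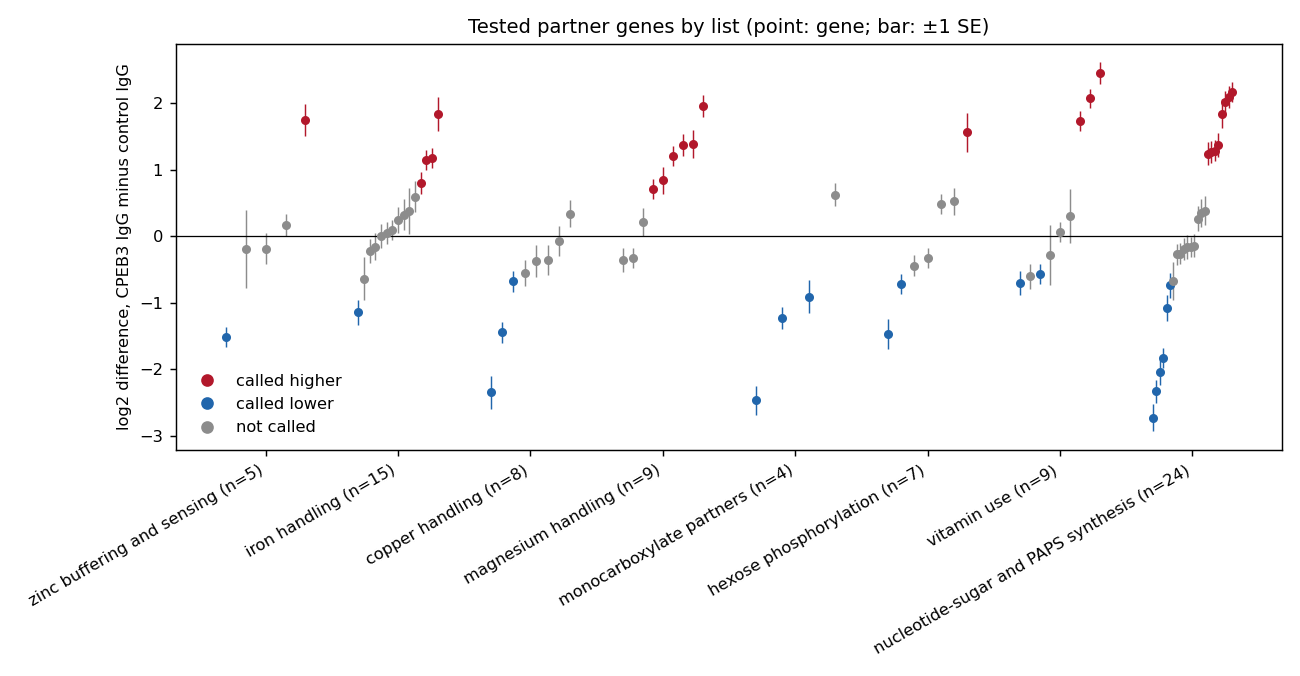
Log2 difference (CPEB3 IgG minus control IgG) of each tested partner gene (point, with a bar of 1 SE either way), grouped by list, with the number tested in brackets. Magnesium-handling genes have 6 points called higher and none lower, copper-handling genes 3 called lower and none higher, and the synthesis list has both.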

How the data were processed

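RNA precipitated with CPEB3 IgG or control IgG (2 arrays each) was put, after amplification and Cy3 labelling, on Agilent 1-colour arrays. The authors deposited scanner output: the processed signal intensity of each spot from Feature Extraction 10.5.1.1, and raw mean and local background intensities, per the file headers (build mm9). From these, the log2 of the processed signal was taken, repeated spots were averaged, and the 75th percentile of each array was subtracted. Control spots and outlier spots were left out. Probes well above background on at least 2 arrays were kept, each gene was read from its brightest kept probe, and limma 3.58.1 (R 4.3.3; lmFit and eBayes) was run on all entries with Benjamini-Hochberg adjustment. Only the limma fit with its adjustment was tried on simulated arrays, with independent noise, and its outcome is not given here. The scaling, spot averaging, filter and choice of probe were not simulated, nor were deviations shared by arrays of one number. Errors are SE of the limma fit, and n is 2 arrays per group throughout. No saturated spot occurred among the members. Symbols are those of the array design, and 129 of the 138 probes matched a RefSeq accession (table of GRCm38.p6, used for names only), 0 of them under another symbol.

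The members, marker lists and partner lists were chosen with earlier results of these data known. Genes were named with values by a rule: called members above background on all arrays, up to the 6 with the largest differences in a family, the brightest member of each family, members with discordant probes, those nearest the threshold and the leading 2 of each partner list. Further members are named to account for the set, of which 1 is counted but not reported here, and Slc16a7, Slc30a3, Slc19a3, Slc35f3 and Slc16a8 were singled out after their values were seen. The alternatives were other scalings (quantile, median, spike-in RNA, none), normexp background with an offset of 50, other filters, the mean of probes, a variance trend, the replicate number as a block, other thresholds and leaving out each array.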

Additional observations from a re-analysis of the deposited data

How the results depend on the processing

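Of the 51 called genes, 23 kept their call under all 14 alternative fits and 27 lost it with at least 1 array left out; none changed sign. Leaving out 1 array at a time gave 26 to 39 genes higher and 0 to 4 lower, and 25 to 39 probes higher and 0 to 3 lower, against 48 and 3 genes and 53 and 5 probes. In those fits the other group alone gives the spread. Without scaling, 30 genes and 34 probes were higher and 3 probes lower. The median gave 1 gene and 1 probe lower, spike-in scaling also 1 and 1, quantile normalization 3 probes lower, and no filter on dim probes 0 probes lower (limma). At an adjusted p of 0.01 there were 25 genes and 26 probes higher, with 0 genes and 0 probes lower, and at 2-fold or more 1 gene and 1 probe were lower. The share of all entries called is not given for the fits and limits of this section, so these counts describe the members alone. The mean of the kept probes turned Slc16a10 from −0.17 to 1.39. That mean takes in a probe that passed the filter only through the CPEB3 IgG arrays, so the change supports nothing here. With the replicate block 54 genes were higher and 6 lower, and over all entries 46.4% of the calls were higher. Arrays of one number deviated from their group means together (r = 0.39 across 27685 entries, which are not independent replicates), but there are only 2 pairs and the labels do not say that a number marks anything shared. For the other moved counts the cause was not tested. Arrays give no depth, and genes dim against background have the least precise values.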
